A study of Mus musculus with 21 samples.

Results

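The effect of a Stag2 knockout (KO) was measured in CFU-E, the late erythroid progenitors that give small red colonies in culture, against wild type (WT). Of 21 RNA-seq libraries from mouse bone marrow, 7 are of sorted CFU-E, 4 labelled Stag2KO and 3 labelled Stag2WT. The others are of LSK cells (stem and multipotent progenitors) and GMP (granulocyte and monocyte progenitors), 7 libraries each. For all 7 CFU-E libraries, cells bearing lineage markers were first removed from whole marrow with magnetic beads, and CFU-E were then sorted. The labels name no Cre driver, deleted exon, strain, age or number of animals, so which cells lost the gene, and when, is not stated here. CFU-E RNA was read at the 3′ ends of transcripts after SMART-Seq2 amplification, so a level is a count of 3′ tags per gene.

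STAG2 is one of the interchangeable STAG subunits of cohesin, the ring that holds sister chromatids together and folds interphase chromatin into loops, and STAG1 is the other form found in dividing somatic cells. In marrow, cohesin mutations are known from myelodysplastic syndrome and acute myeloid leukaemia. CFU-E divide quickly, depend on erythropoietin and are about to make globin, heme and the red cell membrane skeleton. Megakaryocytes, which shed platelets, arise from a progenitor shared with the erythroid line, and GATA1 acts in both lines, with KLF1 on the erythroid side and ETS factors such as FLI1 on the megakaryocyte side.

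Total counts were 4864591, 5550165, 4834342 and 3654667 in KO 1 to KO 4, and 4242146, 5210879 and 3737659 in WT 1 to WT 3. KO 1, WT 1 and WT 2 were sequenced on flow cell A and KO 2, KO 3, KO 4 and WT 3 on flow cell B, as the sample descriptions give them. Levels are CPM, that is counts scaled to equal library totals, with TMM factors that correct for library composition. Each log2 fold change is KO over WT with the flow cell as a term in edgeR's quasi-likelihood fit, so it can depart from the ratio of the plain means, and it carries its standard error (SE). A gene is said to have risen or fallen where its Benjamini-Hochberg adjusted p, over all genes tested, was under 0.05. Whether the replicates are separate animals is not stated, so a p-value compares the genotypes with the spread among these 7 libraries only, part of which can be technical. On the second principal component, which held 26.4% of the variance, KO 2 (29.67) stood apart from KO 1, KO 3 and KO 4 (-17.64 to -4.704). It lay on the side of WT 2 (11.94) and WT 3 (13.7), while WT 1 was at -15.93. The first component, with 33.2%, separated the 4 KO from the 3 WT libraries.

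The libraries carried an erythroid programme in both genotypes. Gata1, the master transcription factor of the line, stood at 208, 255, 242 and 226 CPM in KO 1 to KO 4, against 208, 229 and 214 CPM in WT 1 to WT 3. Klf1, which drives globin and membrane genes, stood at 676, 649.8, 710.0 and 572 CPM in KO 1 to KO 4, against 635, 754 and 594 CPM in WT 1 to WT 3. The KO and WT ranges of both overlapped, Gata1 having a log2 fold change of 0.06 ± 0.14 and Klf1 of 0.04 ± 0.15, with adjusted p of 0.940 and 0.960. Tfrc, the transferrin receptor, was at 508, 256, 489 and 432 CPM in KO 1 to KO 4, against 639, 542 and 619 CPM in WT 1 to WT 3 (log2 fold change -0.45 ± 0.21, adjusted p = 0.501). Every KO library of Tfrc lay below every WT library, as in 5.66% of all genes tested, and KO 2 was the lowest. Kit, the stem cell factor receptor, was at 63.6, 37.2, 50.7 and 69.7 CPM in KO 1 to KO 4, against 89.1, 70.04 and 50.3 CPM in WT 1 to WT 3. Kit had -0.13 ± 0.23 as its log2 fold change (adjusted p = 0.917). Epor, the erythropoietin receptor, spread widely in both genotypes, at 79.5, 17.8, 51.2 and 76.1 CPM in KO 1 to KO 4, against 98.5, 45.9 and 13.8 CPM in WT 1 to WT 3. Epor had 0.88 ± 0.51 as its log2 fold change (adjusted p = 0.631). Alas2, the erythroid heme enzyme that rises after this stage, averaged 0.791 ± 0.268 CPM in KO (SD, n = 4) and 0.664 ± 0.350 CPM in WT (SD, n = 3) and did not pass the filter on low counts. Of all 10170 genes tested, 999 had an unadjusted p under 0.05. None of the 14 tested CFU-E markers passed the threshold in edgeR, 2 had an unadjusted p under 0.05, and DESeq2 called 1 and limma-voom 0. Their median log2 fold change was -0.11, against 0.00 over all genes tested. Car1, an erythroid carbonic anhydrase and the marker with the smallest p, averaged 3781 ± 454 CPM in KO (SD, n = 4) and 2447 ± 172 CPM in WT (SD, n = 3). Car1 had 0.56 ± 0.16 as its log2 fold change (adjusted p = 0.155).

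**Figure D1:**
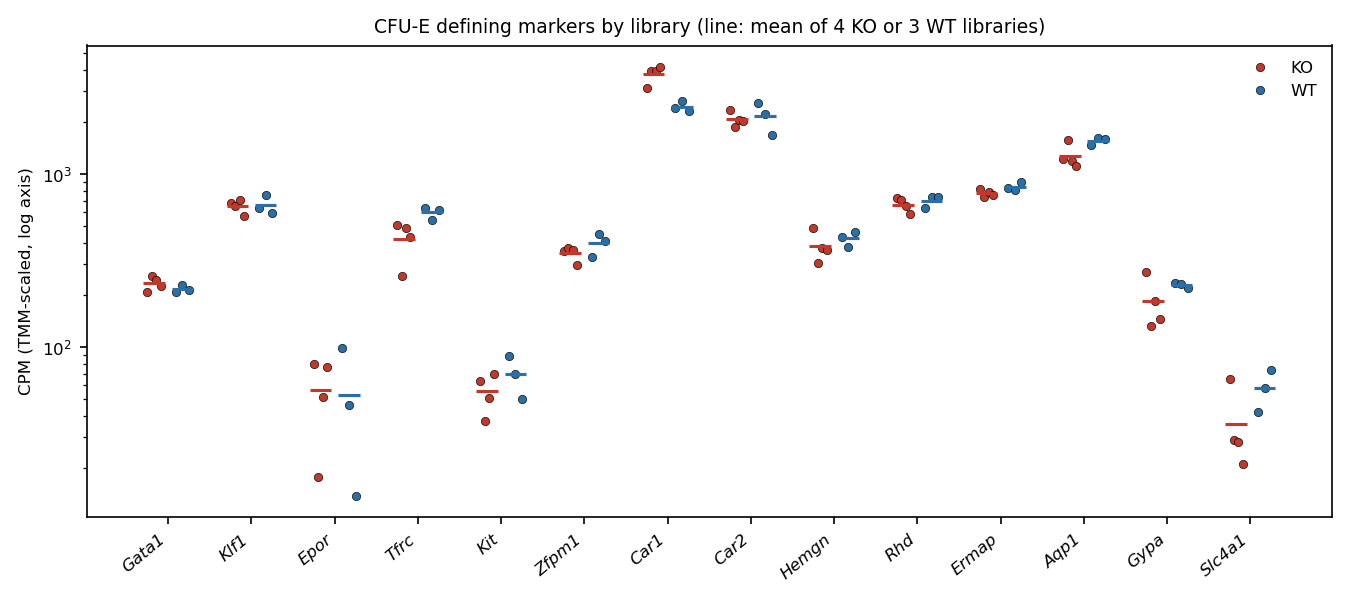
Levels of the 14 tested CFU-E markers in each library, as TMM-scaled CPM on a log axis, with KO libraries (n = 4, red) left of WT libraries (n = 3, blue) and a line at each mean. The ranges of most markers overlap, and Epor spreads widely within both genotypes.

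The targeted gene was lower in KO. Stag2 was at 72.98, 41.3, 66.8 and 75.8 CPM in KO 1 to KO 4, against 137, 125 and 159.9 CPM in WT 1 to WT 3, so the groups did not overlap, and its log2 fold change was -1.14 ± 0.20 (adjusted p = 0.0143). A 3′ tag outside a deleted part need not fall, and the tags that remain do not show whether a protein was made. Stag1 was at 122, 79.97, 108 and 112 CPM in KO 1 to KO 4, against 99.4, 82.3 and 93.9 CPM in WT 1 to WT 3, with overlapping groups (log2 fold change 0.25 ± 0.17, adjusted p = 0.700). Of the 20 tested genes of cohesin and its regulators Stag2 alone passed the threshold, and the median of the list was -0.03. Its other member with the smallest p was Wapal, which releases cohesin from chromatin, at 295 ± 51.2 CPM in KO (SD, n = 4) and 388 ± 38.7 CPM in WT (SD, n = 3) (log2 fold change -0.36 ± 0.16, adjusted p = 0.466). Next were the meiotic kleisin Rec8 (log2 fold change -0.45 ± 0.24, adjusted p = 0.594) and Smc1a, a core ring subunit (log2 fold change -0.30 ± 0.16, adjusted p = 0.598). The call of Stag2 ended without WT 3 (adjusted p = 0.703, log2 fold change -0.85).

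Of 10170 genes tested, 108 (1.06%) passed the threshold, of which 36 rose (0.354%) and 72 fell (0.708%) in KO. In all 108 the KO and WT libraries did not overlap, which was also so for 11.8% of all genes tested (6.1% with KO higher and 5.66% with KO lower). The rises had a median of 3.09-fold, and 27 of the 36 were over 2-fold. The falls had a median of 3.03-fold, and 63 of the 72 were over 2-fold. Within flow cell A, which holds KO 1 against WT 1 and WT 2, 130 genes passed (52 rose and 78 fell), of which 76 were among the 108. Within flow cell B, which holds KO 2, KO 3 and KO 4 against WT 3, 82 passed (25 and 57), of which 47 were among them. Every one of the 108 kept its direction in both flow cells, which follows from the lack of overlap and is no separate support. Without KO 2, the KO library that stood apart from the other KO libraries, 143 genes passed (52 rose and 91 fell) and all 108 were among them. The count rested more on the lone library of a genotype on each flow cell: without WT 3, 22 genes passed (7 rises and 15 falls). Leaving out KO 1 gave 53 (4 rises and 49 falls). Each of these leaves a flow cell with 1 genotype only.

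**Figure D2:**
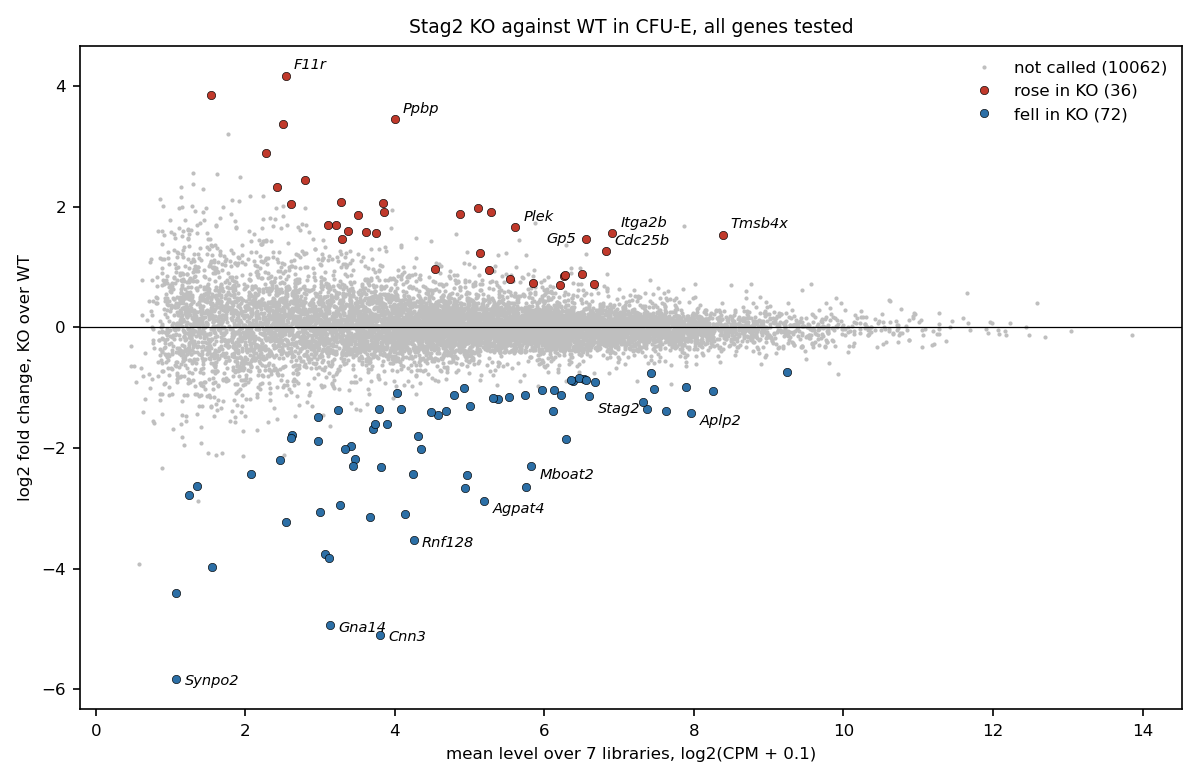
Log2 fold change of KO over WT against the mean level over the 7 CFU-E libraries, as log2(CPM + 0.1), 1 point per tested gene. The 72 genes that fell (blue) reach larger changes than the 36 that rose (red), down to Synpo2, Cnn3 and Gna14, while Tmsb4x is the most abundant gene that rose. Synpo2, Cnn3 and Gna14 were near 0 CPM in KO, so the sizes of their falls are imprecise. The median sizes were alike, at 3.03-fold for falls and 3.09-fold for rises.

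Genes of platelets made up 9 of the 36 rises in KO CFU-E. The lists were chosen with earlier results of these data known, so their counts beside those of all genes are a description and not a test. Of 23 tested platelet receptor and adhesion genes, 5 rose and 0 fell, where 0.354% of all genes rose. Their median log2 fold change was 1.15 and 22 of the 23 were above zero, against a median of 0.00 and 50.7% above zero for all genes tested. Of 23 tested genes of platelet granules and clotting, 4 rose and 0 fell, with a median of 0.77. The summed level of the 30 receptor genes, tested or not, ran from 1016 to 1422 CPM in KO and from 629.5 to 697 CPM in WT, with KO 2 the highest. In a sorted bulk sample, more cells of a type and more RNA of its genes per cell cannot be told apart.

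Itga2b, the alpha subunit of the fibrinogen receptor of platelets, was at 153, 258, 121 and 141 CPM in KO 1 to KO 4, against 38.4, 70.4 and 56.00 CPM in WT 1 to WT 3. Itga2b had 1.56 ± 0.29 as its log2 fold change (adjusted p = 0.0163). Its partner Itgb3 was at 46.9, 55.3, 35.3 and 31.1 CPM in KO 1 to KO 4, against 8.01, 17.1 and 11.1 CPM in WT 1 to WT 3. Itgb3 had 1.88 ± 0.30 as its log2 fold change (adjusted p = 0.00610). Every KO library was above every WT library for both, as for all genes that rose, and KO 2 was the highest. Gp5, a subunit of the platelet receptor for von Willebrand factor, was at 119.5, 184, 104 and 112 CPM in KO 1 to KO 4, against 32.3, 65.6 and 42.5 CPM in WT 1 to WT 3. Gp5 had 1.47 ± 0.28 as its log2 fold change (adjusted p = 0.0201). Cd36, a scavenger receptor that also takes up fatty acids, was at 32.01, 13.4, 19.4 and 18.6 CPM in KO 1 to KO 4, against 4.48, 5.64 and 6.49 CPM in WT 1 to WT 3 (log2 fold change 2.07 ± 0.31, adjusted p = 0.00418), with KO 1 the highest and KO 2 the lowest of the KO libraries. Esam, an adhesion molecule of platelets, endothelium and stem cells, was at 8.15, 15.7, 8.46 and 10.4 CPM in KO 1 to KO 4, against 1.18, 3.11 and 1.08 CPM in WT 1 to WT 3. Esam had 2.45 ± 0.49 as its log2 fold change (adjusted p = 0.0285). The receptors that did not pass include Treml1, a receptor kept in platelet granules, at 84.9 ± 41.2 CPM in KO (SD, n = 4) and 23.9 ± 14.5 CPM in WT (SD, n = 3), where KO 2 stood far above the rest (log2 fold change 1.73 ± 0.44, adjusted p = 0.0954). Cd63, a tetraspanin of granule membranes, did not pass either (log2 fold change 0.60 ± 0.16, adjusted p = 0.122). P2ry1, a platelet ADP receptor, was the 1 tested member below zero, at 31.2, 17.9, 31.4 and 36.2 CPM in KO 1 to KO 4, against 66.2, 45.5 and 59.2 CPM in WT 1 to WT 3. P2ry1 had -0.96 ± 0.24 as its log2 fold change (adjusted p = 0.0952).

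Plek, a protein kinase C substrate abundant in platelets, had the smallest p of the granule and clotting genes and was at 57.5, 91.9, 65.2 and 63.9 CPM in KO 1 to KO 4, against 14.4, 27.4 and 20.02 CPM in WT 1 to WT 3. Plek had 1.66 ± 0.26 as its log2 fold change (adjusted p = 0.00468). Ppbp, a chemokine precursor of platelet granules, was at 35.3, 41.3, 6.601 and 19.7 CPM in KO 1 to KO 4, against 1.41, 5.06 and 1.89 CPM in WT 1 to WT 3. Ppbp had 3.45 ± 0.61 as its log2 fold change (adjusted p = 0.0129). Its KO libraries spread widely, KO 3 being close to WT 2. Rab27b, a GTPase of granule secretion, averaged 13.01 ± 3.59 CPM in KO (SD, n = 4) and 4.15 ± 0.925 CPM in WT (SD, n = 3). Rab27b had 1.70 ± 0.35 as its log2 fold change (adjusted p = 0.0296). F5, coagulation factor V, averaged 7.43 ± 2.38 CPM in KO (SD, n = 4) and 1.17 ± 1.36 CPM in WT (SD, n = 3). F5 had 2.89 ± 0.61 as its log2 fold change (adjusted p = 0.0392). Pf4, another chemokine of platelet granules and the most abundant gene of the list, was at 249, 547, 234 and 313 CPM in KO 1 to KO 4, against 57.96, 153 and 84.4 CPM in WT 1 to WT 3 and did not pass (log2 fold change 1.68 ± 0.38, adjusted p = 0.0578).

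These platelet calls depended on WT 3, KO 1 and the tool. Without WT 3 the adjusted p of Plek was 0.207, of Itgb3 0.150, of Itga2b 0.361, of Gp5 0.481 and of Ppbp 0.180. Without KO 1 they were 0.0589, 0.0974, 0.118, 0.0975 and 0.143 in the same order. In the receptor list 1 gene passed without WT 3 and 0 without KO 1. Its median stayed between 1.06 and 1.47 over the 19 settings of the fit, and was 1.06 within flow cell A, 1.39 within flow cell B and 1.15 without KO 2. In the granule and clotting list 0 genes passed without WT 3 and 0 without KO 1, while 2 passed without WT 1. Its median was 0.46 without WT 3 and 0.45 within flow cell A. With robust dispersion in edgeR the calls of Itga2b (adjusted p = 0.137), Gp5 (0.108) and Ppbp (0.206) ended. With limma-voom those of Ppbp (adjusted p = 0.102), Esam (0.0579) and Rab27b (0.0651) ended. These settings left 3 and 4 calls in the receptor list, and the other list had 3 calls in both. With limma-voom those 3 were Plek (adjusted p = 0.00730), F5 (0.0485) and a gene not called in the main fit.

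The promoters of 3 of these genes are shown because the genes rose together and their proteins act in platelets. They are the RefSeq stretches of 300 bases, 250 before and 50 after the start, on the minus strand of build GRCm38.p6, 5′ to 3′. Capitals mark matches on either strand to any of the letters searched, and a match on the opposite strand appears as its reverse complement. The first search was for AGATAA, known as a GATA motif. The second was for CAGGAA, known as an ETS motif. The third was for CACCC, known as a KLF motif. No matches overlap here. Itga2b lies at chr11:102469834-102470133, Plek at chr11:17008669-17008968 and Gp5 at chr16:30310732-30311031.
Itga2b: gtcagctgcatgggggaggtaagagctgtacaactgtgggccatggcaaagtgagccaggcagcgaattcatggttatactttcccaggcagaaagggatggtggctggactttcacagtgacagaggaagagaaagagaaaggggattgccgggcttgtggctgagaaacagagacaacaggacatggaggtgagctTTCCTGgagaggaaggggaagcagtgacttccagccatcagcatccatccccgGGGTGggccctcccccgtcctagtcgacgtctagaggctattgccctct
Plek: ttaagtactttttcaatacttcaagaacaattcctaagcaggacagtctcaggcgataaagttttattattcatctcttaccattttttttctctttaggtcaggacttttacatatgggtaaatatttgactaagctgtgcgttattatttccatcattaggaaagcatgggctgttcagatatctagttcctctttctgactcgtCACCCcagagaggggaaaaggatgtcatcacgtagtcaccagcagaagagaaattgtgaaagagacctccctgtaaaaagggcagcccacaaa
Gp5: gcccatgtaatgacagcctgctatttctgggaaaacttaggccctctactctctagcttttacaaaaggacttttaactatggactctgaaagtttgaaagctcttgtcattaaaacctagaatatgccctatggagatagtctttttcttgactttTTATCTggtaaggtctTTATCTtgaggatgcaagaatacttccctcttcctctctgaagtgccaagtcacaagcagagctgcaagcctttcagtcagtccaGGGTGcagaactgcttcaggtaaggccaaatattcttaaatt
The Gp5 window holds the GATA letters 2 times, both on the opposite strand. The Itga2b window holds the ETS letters 1 time, and each of the 3 windows holds the KLF letters 1 time. Of all 32851 promoter entries of that length, 11.2% hold the GATA letters, 30.6% the ETS letters and 57.5% the KLF letters. Promoters were found for 75 of the 108 called genes, so no share over all the called genes is given. Whether these letters bear on the rises was not tested.

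Among regulators of the megakaryocyte line the calls were few. Over all genes tested, 0.354% rose and 0.708% fell. Of 27 tested megakaryocyte transcription and signalling genes, 1 rose and 1 fell, with a median log2 fold change of 0.51 and 22 above zero. Without WT 3 this median was 0.27 with 0 calls, within flow cell A it was 0.24, and without KO 1 or KO 3 there were 0 calls. Rgs18, which curbs G protein signals in megakaryocytes and platelets, averaged 29.3 ± 2.21 CPM in KO (SD, n = 4) and 15.04 ± 1.92 CPM in WT (SD, n = 3). Rgs18 had 0.97 ± 0.21 as its log2 fold change (adjusted p = 0.0425). Rgs10, another protein of this family, averaged 67.9 ± 6.88 CPM in KO (SD, n = 4) and 125 ± 16.4 CPM in WT (SD, n = 3). Rgs10 had -0.85 ± 0.16 as its log2 fold change (adjusted p = 0.0215). The ETS repressor Etv6 (log2 fold change 0.64 ± 0.16, adjusted p = 0.0946), the adaptor Lat (log2 fold change 1.23 ± 0.32, adjusted p = 0.107) and the G protein subunit Gng11 (log2 fold change 1.70 ± 0.46, adjusted p = 0.117) did not pass. Of the 14 tested genes of stem cells and self-renewal, some of which, Esam, Meis1 and Cd34 among them, stand in other lists too, 1 rose (Esam) and 0 fell, and the median was 0.96. Meis1, a homeobox factor of stem cells and megakaryocytes (log2 fold change 1.04 ± 0.31, adjusted p = 0.176) and Txnip, which binds thioredoxin (log2 fold change 1.20 ± 0.37, adjusted p = 0.199), did not pass.

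In the granulocyte, monocyte, lymphoid and mast cell marker lists no gene passed the threshold, and the part of such cells in the platelet result was not tested. Ly9, of a separate list of SLAM and lymphoid surface genes, rose and is given below. An unadjusted p under 0.05 was seen in 999 of all 10170 genes tested. Of 13 tested granulocyte genes none passed in edgeR, 6 had an unadjusted p under 0.05, all 6 higher in KO, and DESeq2 called 1 and limma-voom 0. Their median log2 fold change was 0.62, 12 were above zero, and their summed level ran from 336 to 982 CPM in KO libraries and 347 to 702 CPM in WT. Ngp, a neutrophil granule protein, averaged 119.7 ± 50.9 CPM in KO (SD, n = 4) and 59.6 ± 15.1 CPM in WT (SD, n = 3) (log2 fold change 1.21 ± 0.29, adjusted p = 0.0735). The calcium-binding S100a9 averaged 132 ± 50.4 CPM in KO (SD, n = 4) and 90.6 ± 34.9 CPM in WT (SD, n = 3). S100a9 had 0.89 ± 0.27 as its log2 fold change (adjusted p = 0.181). The 18 monocyte genes summed to 28.9 to 51.6 CPM in KO libraries and 23.6 to 26.2 CPM in WT libraries, and the 16 B, T and NK cell genes to 8.25 to 14.2 CPM in KO libraries and 14.2 to 22.5 CPM in WT libraries. The 14 genes of mast cells, basophils and eosinophils summed to 40.2 to 58.99 CPM in KO libraries and 30.03 to 56.1 CPM in WT libraries. Cd79a, Gzma, Klrd1, Fcer1a and Cma1, of lymphoid and mast cells, had 0 counts in all 7 libraries, while no granulocyte or monocyte marker was at 0 in all of them. In edgeR none of the 4 tested monocyte genes, 2 lymphoid genes or 4 mast cell genes passed, each list had 1 gene at an unadjusted p under 0.05, and DESeq2 and limma-voom called 0.

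**Figure D3:**
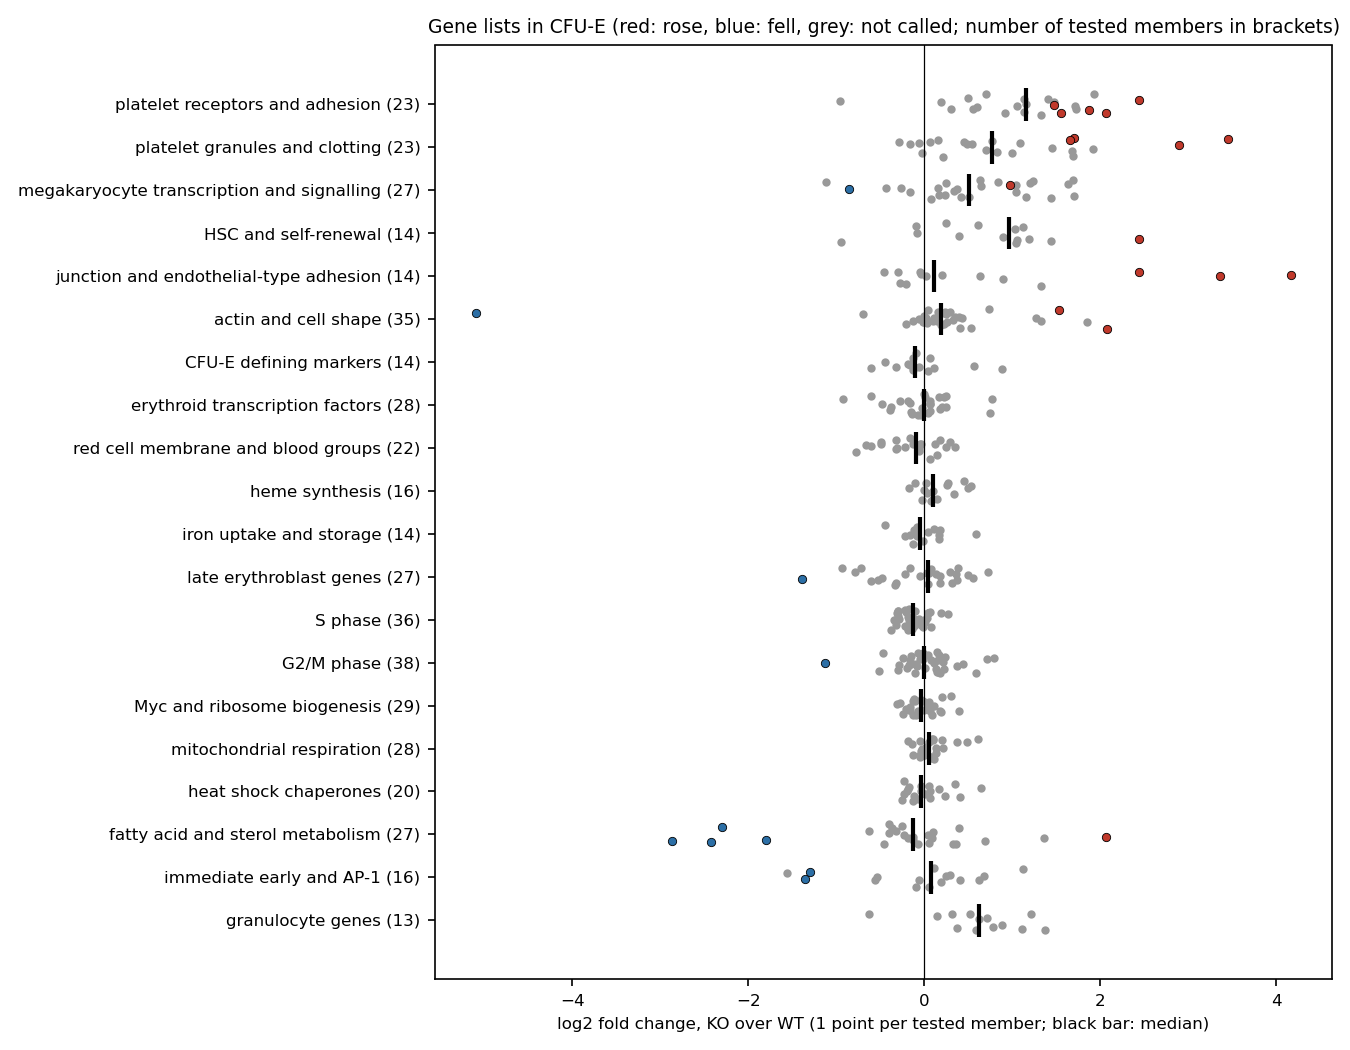
Log2 fold changes of KO over WT in CFU-E for the tested members of 20 gene lists, 1 point per member, with genes that rose in red, genes that fell in blue, and a black bar at each median. Platelet receptor genes lie almost wholly above zero, while the erythroid, cell cycle, mitochondrial and chaperone lists stand close to it.

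Genes of the actin skeleton moved in both directions. Cnn3, a calponin that binds actin filaments, was at 0.408, 1.31, 1.24 and 0.798 CPM in KO 1 to KO 4, against 29.9, 31.5 and 31.4 CPM in WT 1 to WT 3, a 34.2-fold fall (log2 fold change -5.10 ± 0.33, adjusted p = 2.78e-06). It was nearly lost in every KO library, so the size of the fold is imprecise. Over the 7 fits that left out 1 library, its log2 fold change ran from -6.15 to -4.75. Tmsb4x, a thymosin that holds actin monomers, was at 415, 442, 489.5 and 502 CPM in KO 1 to KO 4, against 157, 195 and 136 CPM in WT 1 to WT 3, and was the most abundant gene that rose (log2 fold change 1.54 ± 0.17, adjusted p = 4.16e-04). Actn1, an alpha-actinin that crosslinks filaments, was at 17.1, 17.6, 12.8 and 8.51 CPM in KO 1 to KO 4, against 3.53, 5.25 and 2.71 CPM in WT 1 to WT 3. Actn1 had 2.07 ± 0.36 as its log2 fold change (adjusted p = 0.0109). Of 35 tested actin and cell shape genes, these 2 rose and Cnn3 fell, where 0.354% of all genes rose and 0.708% fell. The median of the list was 0.19. The tropomyosin Tpm4 (log2 fold change 1.85 ± 0.43, adjusted p = 0.0654), the focal adhesion protein Zyx (log2 fold change 1.33 ± 0.36, adjusted p = 0.118) and the calponin Cnn2 (log2 fold change 1.27 ± 0.43, adjusted p = 0.255) did not pass. The calls of Cnn3 and Tmsb4x held in each of the 7 fits that left out 1 library, whereas that of Actn1 ended without WT 3 (adjusted p = 0.202) and without KO 1 (0.106). Of 14 tested tubulin and microtubule genes none passed, none had an unadjusted p under 0.05, and DESeq2 and limma-voom called 0. The members with the smallest p there were the tubulins Tuba4a (0.29 ± 0.20) and Tubb3 (0.55 ± 0.39) and the kinesin Kif2a (-0.17 ± 0.14).

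Of 14 tested genes of cell junctions and endothelial-type adhesion, 3 rose and 0 fell, where 0.354% of all genes rose. The median of the list was 0.11. Plxna2, a semaphorin receptor, was at 8.56, 10.3, 7.63 and 10.1 CPM in KO 1 to KO 4, against 0.707, 0.973 and 0.812 CPM in WT 1 to WT 3. Plxna2 had 3.36 ± 0.43 as its log2 fold change (adjusted p = 0.00117). F11r, a junctional adhesion molecule that platelets also carry, was at 7.34, 18.3, 6.19 and 6.92 CPM in KO 1 to KO 4, against 0.236, 0.778 and 0.271 CPM in WT 1 to WT 3. F11r had 4.17 ± 0.68 as its log2 fold change (adjusted p = 0.00704). Both were near zero in WT and present in all 4 KO libraries, with KO 2 far above the others for F11r. The adjusted p of F11r was 0.00211 without KO 2, 0.0770 without KO 1 and 0.179 without WT 3. The third was Esam, already given with the platelet receptors. Eng, a co-receptor for TGF-beta family ligands (log2 fold change -0.46 ± 0.15, adjusted p = 0.234), and Pecam1 (log2 fold change 1.33 ± 0.40, adjusted p = 0.173) did not pass. Without KO 1 the list held 0 calls, without WT 3 it held 1, and without KO 4 its median was -0.01.

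Other genes with the smallest p among the rises act in signalling and the cell cycle. Cdc25b, the phosphatase that activates cyclin-dependent kinases before mitosis, was at 159, 165, 152 and 130.1 CPM in KO 1 to KO 4, against 60.3, 57.2 and 69.8 CPM in WT 1 to WT 3. Cdc25b had 1.26 ± 0.16 as its log2 fold change (adjusted p = 9.25e-04). Tspan14, a tetraspanin, was at 61.98, 28.4, 51.98 and 52.1 CPM in KO 1 to KO 4, against 20.97, 17.1 and 8.66 CPM in WT 1 to WT 3. Tspan14 had 1.98 ± 0.28 as its log2 fold change (adjusted p = 0.00221). Ndrg2, of the N-myc downstream regulated family, averaged 57.3 ± 7.91 CPM in KO (SD, n = 4) and 14.6 ± 5.34 CPM in WT (SD, n = 3). Ndrg2 had 1.91 ± 0.26 as its log2 fold change (adjusted p = 0.00166). Sla, an adaptor that dampens antigen receptor signals, averaged 20.99 ± 4.13 CPM in KO (SD, n = 4) and 5.67 ± 1.22 CPM in WT (SD, n = 3). Sla had 1.91 ± 0.29 as its log2 fold change (adjusted p = 0.00468). The kinesin Kif21b averaged 19.1 ± 2.96 CPM in KO (SD, n = 4) and 5.75 ± 1.51 CPM in WT (SD, n = 3) (log2 fold change 1.56 ± 0.27, adjusted p = 0.0103). Arhgap18, a GTPase-activating protein, averaged 94.4 ± 7.93 CPM in KO (SD, n = 4) and 53.7 ± 2.14 CPM in WT (SD, n = 3). Arhgap18 had 0.85 ± 0.15 as its log2 fold change (adjusted p = 0.0123). For each of these 6 genes every KO library lay above every WT library, which the naming rule required. This was so for all 36 rises and for 6.1% of all genes tested. The rises outside the naming rule, chosen after their values were seen, include the homeobox gene Nkx1-2 (log2 fold change 2.32 ± 0.42, adjusted p = 0.0143), the plakophilin Pkp3 (log2 fold change 1.59 ± 0.30, adjusted p = 0.0183) and the sulfiredoxin Srxn1 (log2 fold change 1.23 ± 0.24, adjusted p = 0.0233). Others chosen in the same way are the corepressor Tle3 (log2 fold change 0.72 ± 0.16, adjusted p = 0.0425) and the transcription cofactor Dach1 (log2 fold change 0.96 ± 0.19, adjusted p = 0.0251).

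Enzymes of membrane lipids were among the falls with the smallest p. Of 27 tested genes of fatty acid and sterol metabolism, 4 fell and 1 rose, where 0.708% of all genes fell, and the median was -0.13. This list too was chosen with earlier results of these data known. Agpat4, which adds an acyl chain to make phosphatidic acid, was at 10.8, 10.8, 8.25 and 9.05 CPM in KO 1 to KO 4, against 74.7, 66.2 and 75.5 CPM in WT 1 to WT 3. Agpat4 had -2.87 ± 0.19 as its log2 fold change (adjusted p = 2.78e-06). Mboat2, an acyltransferase that remodels phospholipids, was at 23.9, 20.4, 19.2 and 17.3 CPM in KO 1 to KO 4, against 108, 104 and 102 CPM in WT 1 to WT 3. Mboat2 had -2.30 ± 0.16 as its log2 fold change (adjusted p = 4.06e-06). Scd1, the desaturase that makes oleate from stearate, was at 7.34, 5.98, 6.81 and 6.38 CPM in KO 1 to KO 4, against 34.9, 31.3 and 39.5 CPM in WT 1 to WT 3. Scd1 had -2.42 ± 0.22 as its log2 fold change (adjusted p = 5.37e-05). All 3 stood in a narrow band within each genotype, far lower in every KO library than in any WT library.

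Fads3, of the fatty acid desaturase family, averaged 8.88 ± 2.79 CPM in KO (SD, n = 4) and 34.3 ± 5.28 CPM in WT (SD, n = 3). Fads3 had -1.80 ± 0.26 as its log2 fold change (adjusted p = 0.00291). The gene of this list that rose was Cd36. Fabp5, which carries fatty acids within cells (log2 fold change 1.36 ± 0.31, adjusted p = 0.0598), Elovl5, a fatty acid elongase (log2 fold change -0.63 ± 0.18, adjusted p = 0.144), and Lpcat3, a phospholipid acyltransferase (log2 fold change -0.46 ± 0.16, adjusted p = 0.251), did not pass. Dhcr7, a reductase of the last step of cholesterol synthesis, is outside the naming rule and was chosen after its values were seen, and it averaged 9.02 ± 1.76 CPM in KO (SD, n = 4) and 19.9 ± 4.77 CPM in WT (SD, n = 3). Dhcr7 had -1.36 ± 0.25 as its log2 fold change (adjusted p = 0.0147). Calls of Agpat4, Mboat2 and Scd1 held in each of the 7 fits that left out 1 library. Within flow cell A their log2 fold changes were -2.71, -2.16 and -2.18, and within flow cell B -3.004, -2.43 and -2.63.

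**Figure D4:**
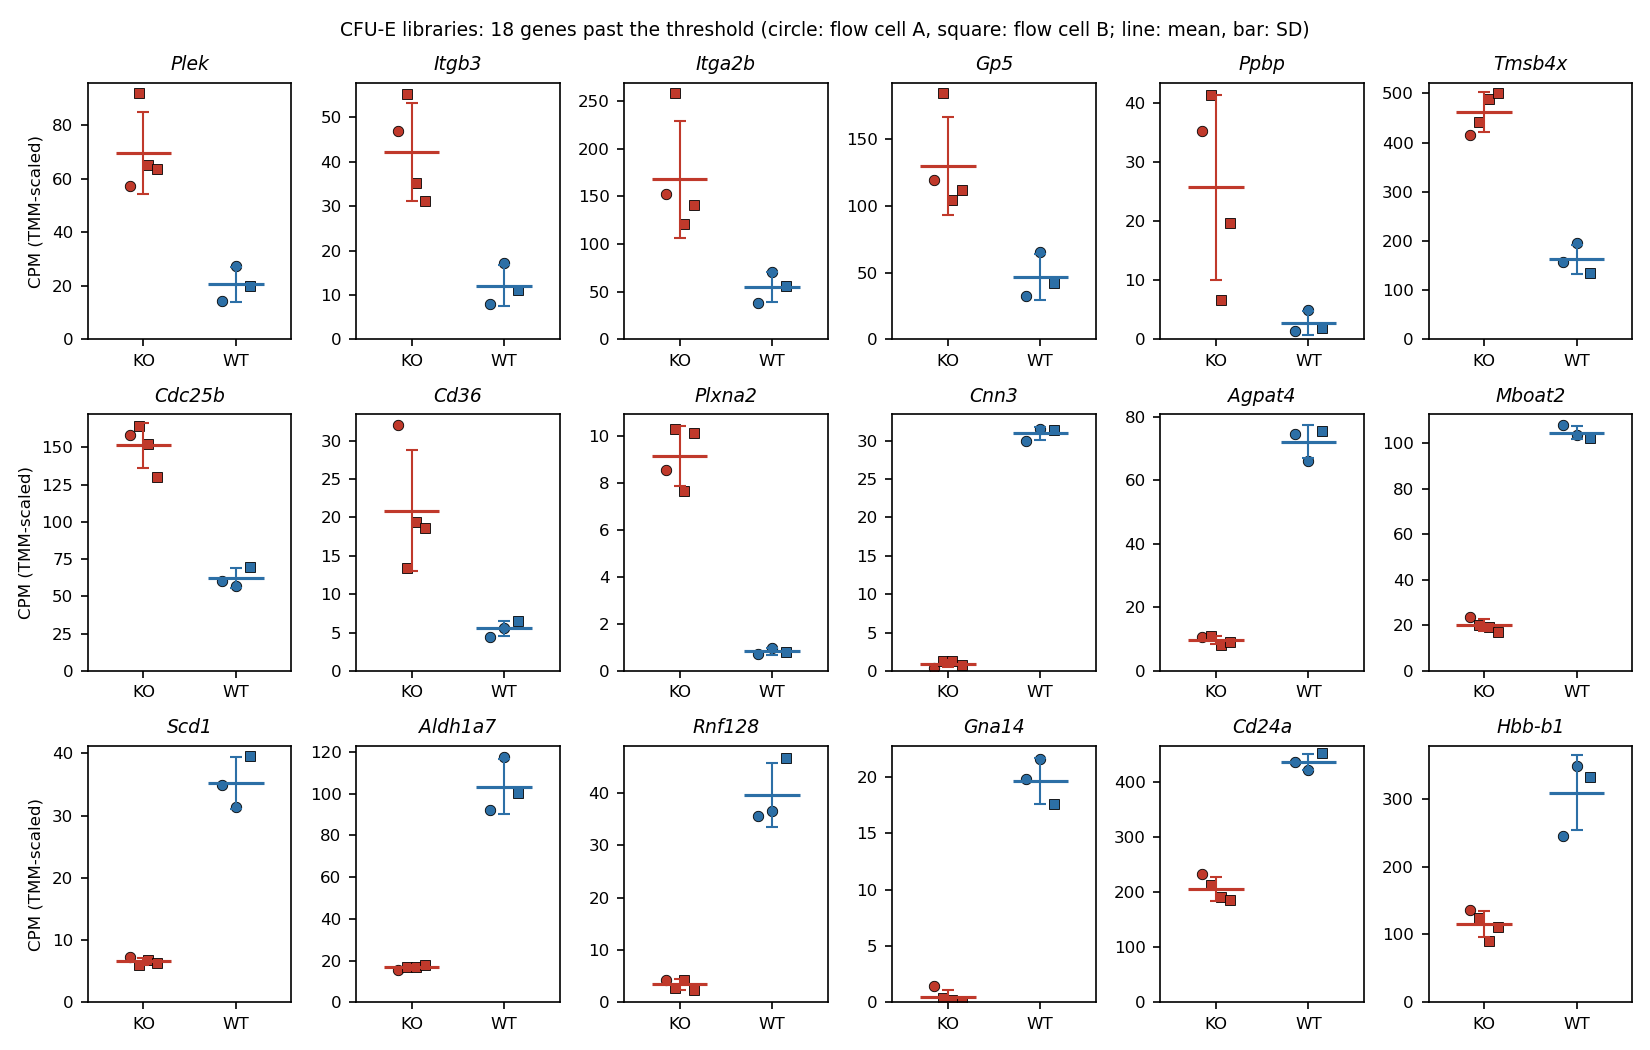
Levels of 18 genes past the threshold in each CFU-E library, as TMM-scaled CPM from 0, with KO (red, n = 4) left of WT (blue, n = 3). Circles are libraries of flow cell A and squares of flow cell B, and lines are means and bars SD. The groups do not overlap in any panel, which was so for every gene past the threshold.

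Signalling genes that bind or break nucleotides fell as well as rose. Gna14, the alpha subunit of a G protein of the Gq class, was at 1.43, 0.374, 0.206 and 0 CPM in KO 1 to KO 4, against 19.8, 21.6 and 17.6 CPM in WT 1 to WT 3, a 30.6-fold fall (log2 fold change -4.94 ± 0.48, adjusted p = 8.32e-05). These KO levels rest on raw counts of 7 in KO 1, 2 in KO 2, 1 in KO 3 and 0 in KO 4, so the size of the fold is imprecise. Of 21 tested G protein subunits and RGS proteins 1 rose (Rgs18) and 2 fell (Gna14 and Rgs10), with a median of 0.05. The shares over all genes tested were 0.354% for rises and 0.708% for falls. The alpha subunits Gnaz (log2 fold change 1.19 ± 0.42, adjusted p = 0.283) and Gnaq (log2 fold change 0.61 ± 0.23, adjusted p = 0.354) did not pass.

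Enpp1, a surface enzyme that splits ATP into AMP and pyrophosphate, was at 2.65, 6.17, 4.54 and 4.26 CPM in KO 1 to KO 4, against 36.8, 35.8 and 32.5 CPM in WT 1 to WT 3. Enpp1 had -3.09 ± 0.28 as its log2 fold change (adjusted p = 5.37e-05). Pde3b, which breaks down cyclic AMP, averaged 1.43 ± 1.58 CPM in KO (SD, n = 4) and 11.4 ± 5.70 CPM in WT (SD, n = 3) (log2 fold change -3.23 ± 0.65, adjusted p = 0.0286). Pde5a, which breaks down cyclic GMP, rose, averaging 11.9 ± 1.76 CPM in KO (SD, n = 4) and 4.12 ± 1.70 CPM in WT (SD, n = 3). Pde5a had 1.69 ± 0.37 as its log2 fold change (adjusted p = 0.0425). These were the 3 calls among 22 tested genes of phosphodiesterases and cyclic nucleotide signalling, where 1.06% of all genes were called. The median of the list was 0.12. The kinase subunit Prkar1a (log2 fold change 0.37 ± 0.15, adjusted p = 0.419), the cyclase Adcy6 (log2 fold change 1.46 ± 0.58, adjusted p = 0.389) and the guanylate cyclase subunit Gucy1a3 (log2 fold change 1.20 ± 0.48, adjusted p = 0.393) did not pass. Arhgef25, a guanine nucleotide exchange factor, was at 39.1, 34.6, 38.8 and 37.2 CPM in KO 1 to KO 4, against 105, 147 and 146 CPM in WT 1 to WT 3. Arhgef25 had -1.85 ± 0.17 as its log2 fold change (adjusted p = 5.37e-05).

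The other falls with the smallest p come from many processes. Aldh1a7, an aldehyde dehydrogenase, was at 15.3, 16.8, 17.1 and 18.1 CPM in KO 1 to KO 4, against 92.4, 118 and 100.1 CPM in WT 1 to WT 3. Aldh1a7 had -2.64 ± 0.17 as its log2 fold change (adjusted p = 2.78e-06). Rnf128, a ubiquitin ligase known from T cell anergy, was at 4.28, 2.80, 4.33 and 2.39 CPM in KO 1 to KO 4, against 35.6, 36.6 and 46.8 CPM in WT 1 to WT 3. Rnf128 had -3.53 ± 0.26 as its log2 fold change (adjusted p = 8.87e-06). Spon2, a secreted matrix protein of the spondin family, was at 9.17, 11.2, 14.03 and 13.6 CPM in KO 1 to KO 4, against 38.9, 62.3 and 69.5 CPM in WT 1 to WT 3. Spon2 had -2.44 ± 0.22 as its log2 fold change (adjusted p = 5.37e-05). In each of the 3, all KO libraries were far below all WT libraries.

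Aplp2, a relative of the amyloid precursor protein, was the most abundant of the 14 falls with the smallest p and averaged 150.4 ± 13.9 CPM in KO (SD, n = 4) and 382 ± 38.8 CPM in WT (SD, n = 3). Aplp2 had -1.42 ± 0.14 as its log2 fold change (adjusted p = 8.32e-05). Nags, which makes the activator of the urea cycle, averaged 1.35 ± 0.413 CPM in KO (SD, n = 4) and 18.3 ± 3.78 CPM in WT (SD, n = 3). Nags had -3.83 ± 0.35 as its log2 fold change (adjusted p = 5.37e-05). Cecr2, a bromodomain protein of a chromatin remodeller, averaged 2.78 ± 1.55 CPM in KO (SD, n = 4) and 25.8 ± 5.79 CPM in WT (SD, n = 3), KO 1 being the highest KO library (log2 fold change -3.14 ± 0.35, adjusted p = 3.46e-04). Gda, a guanine deaminase, was at 13.2, 5.98, 7.22 and 8.51 CPM in KO 1 to KO 4, against 82.2, 34.6 and 61.95 CPM in WT 1 to WT 3. Gda had -2.66 ± 0.31 as its log2 fold change (adjusted p = 6.07e-04). Genes chosen after their values were seen fell in further groups. Of matrix and matrix-shaping proteins, these were Emilin2 (-0.85 ± 0.14), Ntn4 (-1.17 ± 0.20), Gpc4 (-2.02 ± 0.34), Col5a1 (-0.89 ± 0.18) and the protease Mmp14 (-1.23 ± 0.27), with adjusted p of 0.0102, 0.0103, 0.0101, 0.0330 and 0.0425. The mitochondrial sulfide oxidase Sqrdl (log2 fold change -2.17 ± 0.30, adjusted p = 0.00193) and the sulfite oxidase Suox (log2 fold change -1.49 ± 0.30, adjusted p = 0.0285) also fell. Lgals1, a galectin (log2 fold change -2.02 ± 0.25, adjusted p = 0.00108), Cxcr4, the receptor for the chemokine that holds progenitors in marrow (log2 fold change -1.18 ± 0.21, adjusted p = 0.0147), and Hes1, a Notch target (log2 fold change -2.63 ± 0.53, adjusted p = 0.0286), fell too.

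Further falls at the cell surface, also chosen after their values were seen, include adhesion proteins of several families. The cadherin Celsr1 averaged 0.206 ± 0.292 CPM in KO (SD, n = 4) and 4.40 ± 1.14 CPM in WT (SD, n = 3) (log2 fold change -4.41 ± 0.74, adjusted p = 0.00948). The protocadherin Pcdh7 averaged 1.91 ± 1.22 CPM in KO (SD, n = 4) and 10.1 ± 2.42 CPM in WT (SD, n = 3) (log2 fold change -2.19 ± 0.47, adjusted p = 0.0425). The nectin Pvrl2 averaged 1.88 ± 1.28 CPM in KO (SD, n = 4) and 15.97 ± 6.17 CPM in WT (SD, n = 3) (log2 fold change -3.06 ± 0.50, adjusted p = 0.00737). The semaphorin receptor Plxnc1 (log2 fold change -1.16 ± 0.19, adjusted p = 0.00737), Igsf3 (log2 fold change -1.04 ± 0.15, adjusted p = 0.00315) and the calsyntenin Clstn3 (log2 fold change -1.45 ± 0.27, adjusted p = 0.0154) fell as well. Of ion transport, the calcium channel subunit Cacna1e (log2 fold change -3.96 ± 0.71, adjusted p = 0.0136), the sodium pump subunit Atp1b2 (log2 fold change -0.91 ± 0.17, adjusted p = 0.0163) and the sulfate transporter Slc26a1 (log2 fold change -1.005 ± 0.20, adjusted p = 0.0258) fell. Of sugar chain synthesis, the sulfotransferase Chst15 (log2 fold change -1.39 ± 0.19, adjusted p = 0.00218) and Galnt6, which starts O-linked chains (log2 fold change -1.60 ± 0.25, adjusted p = 0.00468), fell. Of metabolism, pyruvate carboxylase, Pcx (log2 fold change -1.88 ± 0.37, adjusted p = 0.0271), and the lipid phosphatase Ppap2a (log2 fold change -1.97 ± 0.30, adjusted p = 0.00450) fell.

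The remaining calls are also named after their values were seen. The rises, from 0.70 ± 0.15 to 3.84 ± 0.75 on the log2 scale, were Zadh2, Map4k4, Crlf3, Ctdsp2, Cyb561, Ctla2a, Ppic and Eps8l1, and 1 clone-like symbol that is not named. The falls, from -0.73 ± 0.15 to -5.83 ± 0.83, were Parm1, Dapk2, Synpo2, Dcaf6, Homer2, Ncoa7, Ly6e, Spire1, Grina, Fgd6, Ehd2, Chd3, Rom1, Plcb4, Nefh and Erp29, with Tsc22d1, Ddah2, Atp2b4 and Chst11, whose values come later, and 4 clone-like symbols that are not named.

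The erythroid programme itself held few calls. As a base for the lists here and below, 0.354% of all 10170 genes tested rose and 0.708% fell. An unadjusted p under 0.05 was seen in 999 of the 10170. Small list medians have no firm sign here: over the 40 lists, 19 medians, each under 0.25 in size with all libraries, changed sign without at least 1 library, 14 of them without WT 3. Of 28 tested erythroid transcription factors none passed in edgeR, 6 had an unadjusted p under 0.05 (1 higher and 5 lower in KO), and DESeq2 called 1 and limma-voom 0. Their median was 0.00, and the members with the smallest p were Myb, which keeps progenitors cycling, at 372, 298, 433 and 437 CPM in KO 1 to KO 4, against 656, 599 and 541 CPM in WT 1 to WT 3 (log2 fold change -0.61 ± 0.17, adjusted p = 0.144). Sox6, a partner in globin silencing (log2 fold change 0.77 ± 0.26, adjusted p = 0.256), and Klf3 (log2 fold change -0.38 ± 0.16, adjusted p = 0.423) came next. Of 17 tested early erythroid genes 0 rose and 1 fell, with a median of 0.24, which was -0.19 without WT 3, -0.20 within flow cell A and 0.07 without KO 1. That gene was Cd24a, a surface glycoprotein used to stage erythroid cells, at 234, 213, 191 and 185 CPM in KO 1 to KO 4, against 437, 422 and 453 CPM in WT 1 to WT 3 (log2 fold change -1.05 ± 0.14, adjusted p = 0.00125), with all KO libraries below all WT libraries. Of the 17 early erythroid genes, 6 had an unadjusted p under 0.05, 3 higher and 3 lower in KO, and DESeq2 called 3 and limma-voom 2. The summed level of the list's 18 genes, tested or not, ran from 2298 to 2879 CPM in KO. In WT it ran from 3044 to 3436 CPM, above every KO library. Pf4, given with the platelet granule genes, is also a member of this list. Mt2, a metallothionein, averaged 767 ± 181 CPM in KO (SD, n = 4) and 1239 ± 159 CPM in WT (SD, n = 3). Mt2 had -0.78 ± 0.19 as its log2 fold change (adjusted p = 0.0777).

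Of 27 tested late erythroblast genes, Hbb-b1 fell and none rose, with a median of 0.04. Hbb-b1, an adult beta globin, was at 136, 124, 90.3 and 111 CPM in KO 1 to KO 4, against 246, 348 and 332 CPM in WT 1 to WT 3 (log2 fold change -1.39 ± 0.18, adjusted p = 0.00113). The neighbouring Hbb-b2, nearly the same in sequence, averaged 898 ± 227 CPM in KO (SD, n = 4) and 573 ± 84.2 CPM in WT (SD, n = 3). Hbb-b2 had 0.72 ± 0.20 as its log2 fold change (adjusted p = 0.122). The directions of the beta copies were opposite, and reads can be split between them by the counting, so both values are uncertain. Of the 4 globins tested the others were Hba-a1 (log2 fold change -0.79 ± 0.26, adjusted p = 0.234) and Hba-a2 (log2 fold change 0.55 ± 0.31, adjusted p = 0.616), uncertain for the same reason. The late genes with the smallest p beside the globins were the ubiquitin ligases Mkrn1 (log2 fold change -0.53 ± 0.16, adjusted p = 0.164) and Ube2o (log2 fold change -0.48 ± 0.20, adjusted p = 0.442).

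Membrane, heme and iron genes had no call. Of 22 tested red cell membrane and blood group genes, 4 had an unadjusted p under 0.05, all lower in KO, and edgeR, DESeq2 and limma-voom called 0. Their median was -0.09, and Abcb6, a porphyrin transporter, averaged 53.7 ± 10.1 CPM in KO (SD, n = 4) and 79.1 ± 14.9 CPM in WT (SD, n = 3). Abcb6 had -0.66 ± 0.19 as its log2 fold change (adjusted p = 0.143). Slc4a1, the anion exchanger of red cells, was at 65.03, 28.96, 28.3 and 21.02 CPM in KO 1 to KO 4, against 41.9, 57.6 and 73.8 CPM in WT 1 to WT 3. Slc4a1 had -0.61 ± 0.30 as its log2 fold change (adjusted p = 0.559). KO 1 was within the WT range and the other 3 KO libraries were below it. Of 16 tested heme synthesis genes, 4 had an unadjusted p under 0.05, all higher in KO, and the 3 tools called 0. Their median was 0.10, and the mitochondrial carrier Slc25a38 averaged 88.5 ± 15.98 CPM in KO (SD, n = 4) and 75.8 ± 25.1 CPM in WT (SD, n = 3). Slc25a38 had 0.53 ± 0.18 as its log2 fold change (adjusted p = 0.254). Of 14 tested iron genes, 1 had an unadjusted p under 0.05, the 3 tools called 0, and the median was -0.05.

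Of 21 tested genes of erythropoietin and JAK-STAT signalling, 7 had an unadjusted p under 0.05 and the 3 tools called 0, with a median of 0.08. Akt1 (log2 fold change 0.61 ± 0.17, adjusted p = 0.144), the survival kinase gene Pim1 (log2 fold change 0.98 ± 0.28, adjusted p = 0.147) and Pik3r1 (log2 fold change -0.42 ± 0.14, adjusted p = 0.254) had the smallest p. Of 16 tested cytokine and growth factor receptors 0 rose and 1 fell. That gene was Tgfbr3, a co-receptor for TGF-beta, which averaged 7.20 ± 2.80 CPM in KO (SD, n = 4) and 20.6 ± 3.59 CPM in WT (SD, n = 3). Tgfbr3 had -1.68 ± 0.36 as its log2 fold change (adjusted p = 0.0406).

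The 3 lists of the cell cycle held 1 call. Cdc25b, which rose and was given above, stands in none of them. Of 36 tested S phase genes, 2 had an unadjusted p under 0.05, the 3 tools called 0, and 9 were above zero, with a median of -0.13. Cdc6, which licenses replication origins, averaged 243 ± 27.2 CPM in KO (SD, n = 4) and 315 ± 19.8 CPM in WT (SD, n = 3). Cdc6 had -0.30 ± 0.14 as its log2 fold change (adjusted p = 0.490). Of 38 tested genes of G2 and mitosis 0 rose and 1 fell, with a median of -0.002. That gene was the centromere protein Cenpv, which averaged 34.9 ± 7.57 CPM in KO (SD, n = 4) and 78.5 ± 5.67 CPM in WT (SD, n = 3). Cenpv had -1.12 ± 0.20 as its log2 fold change (adjusted p = 0.0135). Of 18 tested G1 cyclins and CDK inhibitors, 3 had an unadjusted p under 0.05, edgeR and limma-voom called 0 and DESeq2 1. Ccnd1 averaged 6.96 ± 1.75 CPM in KO (SD, n = 4) and 17.5 ± 6.56 CPM in WT (SD, n = 3). Ccnd1 had -1.37 ± 0.35 as its log2 fold change (adjusted p = 0.0999).

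The lists of stress and survival held 2 calls. Of 16 tested immediate early and AP-1 genes 0 rose and 2 fell, where 0.708% of all genes fell, with a median of 0.08. Jun averaged 9.66 ± 2.13 CPM in KO (SD, n = 4) and 26.6 ± 1.23 CPM in WT (SD, n = 3) (log2 fold change -1.36 ± 0.23, adjusted p = 0.0109). Jund averaged 19.1 ± 5.06 CPM in KO (SD, n = 4) and 49.3 ± 8.29 CPM in WT (SD, n = 3) (log2 fold change -1.30 ± 0.23, adjusted p = 0.0135). Both are subunits of AP-1. Of 20 heat shock chaperones none had an unadjusted p under 0.05 and the 3 tools called 0 (median -0.04). Of 16 p53 response genes 5 had an unadjusted p under 0.05 and the 3 tools called 0 (median 0.06). Cdkn1a, an inhibitor of cyclin-dependent kinases and p53 target, averaged 4.96 ± 1.53 CPM in KO (SD, n = 4) and 1.39 ± 2.01 CPM in WT (SD, n = 3). Cdkn1a had 2.12 ± 0.80 as its log2 fold change (adjusted p = 0.349). Of 15 BCL2 family genes 2 had an unadjusted p under 0.05 and the 3 tools called 0 (median -0.05). Of 22 interferon response genes 1 had an unadjusted p under 0.05 and the 3 tools called 0 (median 0.10).

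The lists of growth and energy held no call, and those of amino acids, chromatin and ubiquitin 1 call each. None of 29 Myc and ribosome biogenesis genes or 28 mitochondrial respiration genes had an unadjusted p under 0.05, and the 3 tools called 0, with medians of -0.04 and 0.06. Of 19 glycolysis and hypoxia genes 2 had an unadjusted p under 0.05 and the 3 tools called 0 (median 0.08), and Pkm2 averaged 9.99 ± 1.90 CPM in KO (SD, n = 4) and 3.88 ± 2.24 CPM in WT (SD, n = 3). Pkm2 had 1.46 ± 0.43 as its log2 fold change (adjusted p = 0.160). Of 22 genes of amino acid metabolism and ATF4 targets 1 fell, Nags, and 0 rose (median 0.06). Of 39 chromatin regulators 1 fell, Cecr2, and 0 rose (median -0.07). Of 23 ubiquitin ligases of erythroblasts and immune cells 1 fell, Rnf128, and 0 rose (median -0.07). Of 4 tested SLAM and lymphoid surface genes 1 rose, Ly9, a SLAM family receptor, which averaged 8.62 ± 3.66 CPM in KO (SD, n = 4) and 2.57 ± 0.940 CPM in WT (SD, n = 3). Ly9 had 2.05 ± 0.43 as its log2 fold change (adjusted p = 0.0356).

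GMP gave the comparison that shows which changes differ between progenitors. The difference in the KO effect, CFU-E minus GMP, was fitted over the 14 libraries of both populations with the flow cell as a term, and all GMP libraries were on flow cell A. Of 11006 genes, 49 (0.445%) differed, 37 with a higher KO effect in CFU-E (0.336%) and 12 with a lower one (0.109%). Of the 108 genes called in CFU-E, 18 were among them. In GMP, Stag2 had a log2 fold change of -0.47 ± 0.27 (adjusted p = 0.360), so the knockout was not shown there by its own transcript, and the difference between populations did not pass (-0.57 ± 0.36, adjusted p = 0.483).

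Actn1 had the smallest p of the higher effects. It rose in CFU-E and fell in GMP, with a log2 fold change of -1.33 ± 0.20 in GMP (adjusted p = 0.00257) and a difference of 3.48 ± 0.35, adjusted p = 2.95e-05. Tspan14 and Sla rose in CFU-E and had -0.68 ± 0.23 and -0.26 ± 0.21 in GMP, with differences of 2.75 ± 0.37, adjusted p = 0.00116, and 2.25 ± 0.34, adjusted p = 0.00206. Ptgs1, the cyclooxygenase of platelets, and Rhoj, a small GTPase, did not pass in CFU-E alone (adjusted p = 0.0622 and 0.0776), and their differences were 2.28 ± 0.35, adjusted p = 0.00238, and 4.95 ± 0.73, adjusted p = 0.00206. Of the lower effects, Enpp1 had 0.10 ± 0.32 in GMP and a difference of -3.13 ± 0.43, adjusted p = 0.00116. Rnf128 had 0.30 ± 0.37 in GMP and a difference of -3.74 ± 0.50, adjusted p = 0.00116, and Gda had 0.11 ± 0.25 in GMP and a difference of -2.68 ± 0.41, adjusted p = 0.00235. Atp2b4, a calcium pump of the plasma membrane, averaged 101 ± 21.3 CPM in KO (SD, n = 4) and 252 ± 36.9 CPM in WT (SD, n = 3) in CFU-E, and the difference was -1.95 ± 0.29, adjusted p = 0.00206. Chst11, a chondroitin sulfotransferase, averaged 12.2 ± 1.55 CPM in KO (SD, n = 4) and 35.9 ± 7.59 CPM in WT (SD, n = 3) in CFU-E, and the difference was -2.34 ± 0.35, adjusted p = 0.00217.

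**Figure D5:**
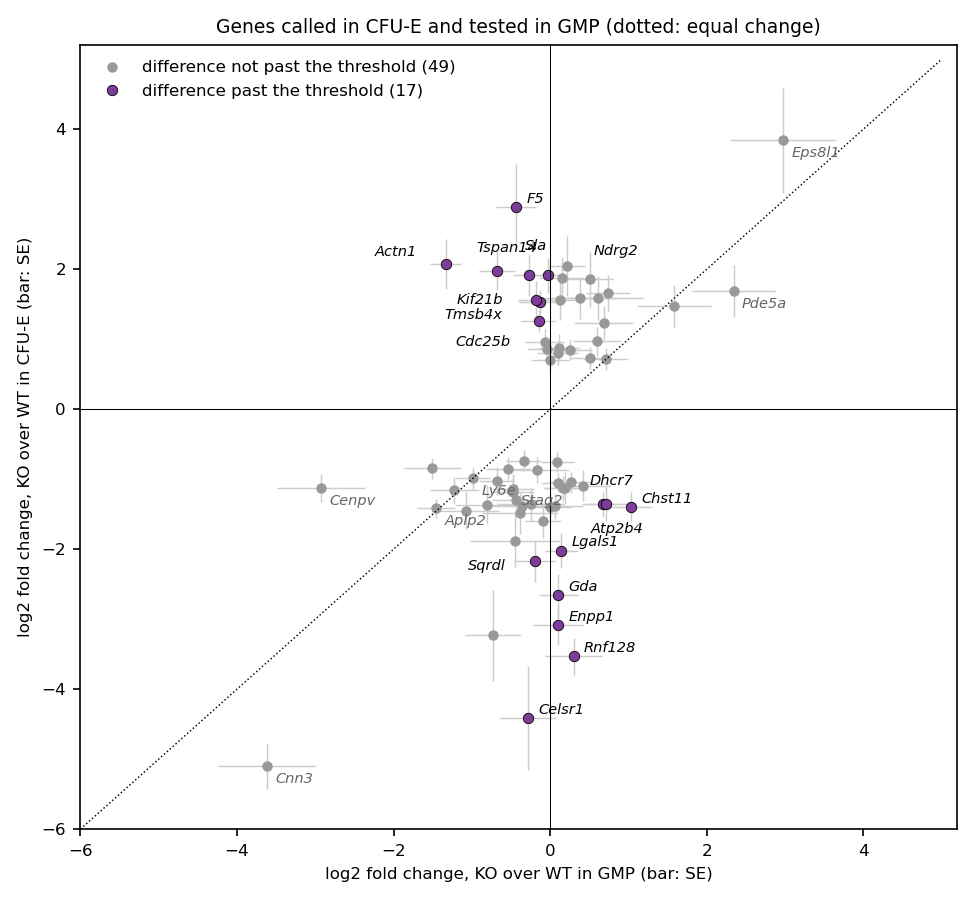
Log2 fold change of KO over WT in CFU-E against that in GMP for the 66 genes called in CFU-E and tested in both, with SE bars. The 17 genes in purple differ between the populations by the interaction test, while Cnn3, Eps8l1, Pde5a and Aplp2, in grey, have changes of the same sign in both.

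Some falls and rises were called in both populations. Of the 66 genes called in CFU-E and tested in GMP alone, 7 passed in GMP, where 1.45% of the 9969 genes tested in GMP alone passed, and 6 of these had the same sign as in CFU-E. The 6 are named after their values were seen. Cnn3 had -3.62 ± 0.63 in GMP (adjusted p = 0.00742), Aplp2 -1.46 ± 0.24 (0.00517), Ly6e -0.99 ± 0.22 (0.0373) and Cenpv -2.93 ± 0.56 (0.0162). Pde5a had 2.35 ± 0.53 (0.0393) and Eps8l1 2.98 ± 0.68 (0.0412). In LSK cells, whose libraries came from another kit, Cnn3 had a log2 fold change of -2.25 ± 0.19 (adjusted p = 0.00851), and the difference from CFU-E was not tested. Of the 9 platelet genes that rose in CFU-E, F5 passed the test of the difference, with -0.44 ± 0.26 in GMP and a difference of 3.36 ± 0.60, adjusted p = 0.0105. The other 8 did not pass. Of these, Itga2b had 0.12 ± 0.29 in GMP and a difference of 1.51 ± 0.45, adjusted p = 0.166. Itgb3 had 0.15 ± 0.29 in GMP and a difference of 1.81 ± 0.43, adjusted p = 0.0737. Plek had 0.74 ± 0.28 in GMP and a difference of 1.01 ± 0.40, adjusted p = 0.292. Gp5 was too low in GMP to be tested there alone and had a difference of 0.52 ± 0.82, adjusted p = 0.791. Without CFU-E WT 3 the count of differing genes was 2, without CFU-E KO 1 it was 16, without GMP WT 2 it was 28 and without CFU-E WT 1 it was 31.

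Of the 108 calls, 13 of the 72 falls and 1 of the 36 rises passed in each of the 7 fits that left out 1 library. The falls were Cnn3, Spon2, Aplp2, Enpp1, Arhgef25, Mboat2, Tsc22d1, Agpat4, Ddah2, Gna14, Aldh1a7, Scd1 and Rnf128, and the rise was Tmsb4x. Each of the other calls ended without at least 1 library. Without WT 3, and without KO 1, there were 1 and 1 calls among G protein and RGS genes, 1 and 1 among phosphodiesterase and cyclic nucleotide genes and 0 and 0 among immediate early genes. Tsc22d1, a leucine zipper protein that TGF-beta induces, averaged 43.1 ± 6.64 CPM in KO (SD, n = 4) and 104 ± 2.19 CPM in WT (SD, n = 3) (log2 fold change -1.38 ± 0.16, adjusted p = 6.08e-04). Ddah2, an enzyme of methylarginine breakdown, averaged 5.17 ± 1.12 CPM in KO (SD, n = 4) and 25.7 ± 3.26 CPM in WT (SD, n = 3) (log2 fold change -2.32 ± 0.27, adjusted p = 6.08e-04), both named after their values were seen.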

How the data were processed

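The deposited values are whole-number counts of reads per gene, 30733 genes, not normalized. The submitters' processing notes name STAR 2.4, HTSeq 0.6.1, DESeq2 and the build mm9. Neither the gene models nor the use of strand in counting is stated, so overlapping, antisense and near-identical genes are uncertain. No genome of that build was used and no position comes from the files. In the 7 CFU-E libraries 11225 genes had no count.

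From the counts, edgeR 4.0.16 in R 4.3.3 was run with filterByExpr (minimum count 10, minimum total 15), TMM factors, a model of flow cell and genotype, edgeR's quasi-likelihood test, and p-values adjusted by Benjamini-Hochberg over 10170 genes, with a threshold of 0.05. Each SE was derived from the log2 fold change and its F value. The KO effect in CFU-E minus that in GMP was tested as an interaction over 14 libraries and 11006 genes. The code was tested on simulated data. Alternatives were DESeq2 1.42.0, limma-voom 3.58.1, other filters, size factors, robust dispersion, no flow cell term, each flow cell alone, a replicate block, a joint fit, and leaving out each library. No library pair of a group agreed within sampling noise.

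The 40 gene lists (932 distinct members given, 919 in the table, 708 tested, 83 in more than 1 list) and the naming rule were chosen with earlier results of these data known. Named by rule are Stag2, Stag1 and 5 CFU-E markers, the 14 rises and 14 falls with the smallest p (mean of at least 5 CPM, no overlap of KO and WT, clone-like symbols counted only), called list members with up to 3 others per list, and 5 genes per direction of the interaction. A few of the genes so named are not reported here. Counts of a list are set beside those of all genes, with no set test. Promoters come from RefSeq, and were matched by symbol.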

Additional observations from a re-analysis of the deposited data

Results flagged for a closer look

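In 15 of 227 genes examined, the highest or lowest of the 4 KO libraries lay apart from the other 3 by Dixon's ratio. Chance flags about 1 in 20 groups, and 6.61% of genes were flagged here. KO 2 was the highest for F11r (18.3 CPM), Srxn1 (56.2), Treml1 (146.1), Gng11 (15.7), Pecam1 (16.8), Lpcat3 (95.5), Hk1 (544.1) and Nkg7 (8.22). Of these, F11r, Treml1, Gng11 and Pecam1 are platelet, megakaryocyte or junction genes. Lists of such genes were among those from which the 227 were named, and their share of the 227 was not counted. KO 1 was the highest for Cecr2 (5.10 CPM), Sox6 (85.0) and Hspa8 (925.6), and KO 4 for Synpo2 (0.266, the other 3 being at 0), Homer2 (4.79) and Zmat3 (44.7). KO 3 was the lowest for Chst11 (9.90 CPM). Their causes were not tested.

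The KO effect differed between CFU-E and GMP for 23 genes examined, by the interaction test. As log2 differences, CFU-E minus GMP, it was higher in CFU-E for Plxna2 (5.05), Rhoj (4.95), Actn1 (3.48), F5 (3.36), Tspan14 (2.75), Ngp (2.29), Ptgs1 (2.28), Sla (2.25), Ndrg2 (2.02), Zyx (1.86), Kif21b (1.82), Tmsb4x (1.75), Ier5 (1.67) and Cdc25b (1.48). It was lower in CFU-E for Celsr1 (-4.005), Rnf128 (-3.74), Enpp1 (-3.13), Gda (-2.68), Chst11 (-2.34), Lgals1 (-2.08), Dhcr7 (-1.98), Atp2b4 (-1.95) and Sqrdl (-1.90). All GMP libraries were on flow cell A, and Plxna2 was too low in GMP to be tested there alone.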

How the results depend on the processing

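The 108 calls kept their direction under each alternative in which they were tested, but their number moved. For fits to part of the CFU-E libraries, the kept direction follows from the lack of overlap between KO and WT. DESeq2 called 182 genes (75 rose, 107 fell), no filter on low counts gave 333 (186 rose and 147 fell, or 55.9% rises against 33.3%), and no flow cell term gave 234 (99 and 135). DESeq2 size factors (110), limma-voom (97), robust dispersion (122), a stricter filter (86) and a joint fit with GMP (77) stayed within 1.5 times the count, though which platelet genes passed moved with limma-voom and robust dispersion. Leaving out 1 library gave 22 to 143 calls, 4 to 52 rises and 15 to 91 falls, the lowest counts of calls and falls being without WT 3 and the lowest count of rises without KO 1, where 7.55% of calls were rises. The interaction gave 49 genes, 81 with no flow cell term and 2 to 72 without 1 library. The cause was not tested.

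KO and WT libraries share replicate numbers, and their deviations correlated by 0.199, 0.271 and -0.194 for numbers 1, 2 and 3. Pairs with unlike numbers ran from -0.427 to 0.287. So few pairs cannot settle whether the numbers pair the libraries. A replicate block with the flow cell term gave 31 calls (9 rose, 22 fell) and without it 168 (81 rose, 87 fell, or 48.2% rises), and 56 genes in the interaction. Depth limits genes of a few CPM, where KO or WT levels rest on few counts.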
